A study of Mus musculus with 12 samples.

Results

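The nuclear genes of respiratory complexes II to V were taken as a gene family and followed across the 4 culture surfaces. Members were the protein-coding genes of the count table whose mouse symbol was Sdha, Sdhb, Sdhc or Sdhd or began with Uqcr, with Cox followed by a number from 4 to 8, or with Atp5. This rule found 48 genes under 47 symbols (Atp5o stood under 2 identifiers) among 55536 genes, of which 22028 were protein-coding. Complex II had 4 members, complex III 8, complex IV 18 and complex V 18, and 43 of the 48 had enough counts to be tested. The rule takes in Cox7a2l, Atp5s and Atp5mpl, which are not core subunits, and leaves out the complex III subunit Cyc1 and the subunits Ndufa4 and Usmg5, whose symbols do not match.

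RNA was sequenced from C2C12-GFP cells, a mouse skeletal muscle myoblast line carrying green fluorescent protein, differentiated toward myotubes. The control group grew on uncoated plates, the Collagen I group on the fibrillar collagen of connective tissue, the fibronectin group on an adhesive glycoprotein of the matrix, and the Geltrex group on a basement membrane extract rich in laminin. Each group held 3 samples, the coating was the only labelled difference, and the comparisons ask how the coating went with the expression of the differentiated cells. Total counts ran from 22.5 M to 27.4 M a sample (M, mega). Nothing in the labels says that the 3 samples of a group came from separate cultures, so the p-values measure only the spread between these samples, which may be technical.

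The inner mitochondrial membrane carries the complexes that move electrons to oxygen and the enzyme that makes ATP from the resulting proton gradient. Complex II (succinate dehydrogenase) feeds electrons from succinate, complex III (the cytochrome bc1 complex) passes them to cytochrome c, complex IV (cytochrome c oxidase) reduces oxygen, and complex V (ATP synthase) turns the gradient into ATP. Most of their subunits are encoded in the nucleus, and in heart and skeletal muscle 3 subunits of complex IV exist as muscle isoforms, Cox6a2, Cox7a1 and Cox8b, beside the ubiquitous Cox6a1, Cox7a2 and Cox8a.

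Levels are given as CPM, that is, counts divided by the summed counts of the 14499 genes tested, scaled by TMM factors and put on the usual per-mega scale. A member was called when the quasi-likelihood test of edgeR gave an adjusted p of at most 0.05 over all 14499 genes, with no minimum fold, and log2 fold changes name the group above the line first. In each sample's deviation, the log2 CPM of a gene is set against its own mean over the 12 samples.

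Some libraries stood apart before any group was compared. The mean chi-square per gene between a pair of libraries, which sampling noise alone would put at 1, was 2.15 to 4.4 within the Geltrex group. It was 21.3 to 30.3 among control samples, 20.1 to 29.5 among fibronectin samples and 7.50 between Collagen I samples 1 and 2, and Collagen I sample 3 differed from those by 43.1 and 63.0. The 3 Geltrex pairs thus had the smallest values, the nearest pair of another group being Collagen I samples 1 and 2. Of 43 members, 32 were higher in Collagen I sample 3 than in both other samples of its group (40.8% of all genes) and 37 in fibronectin sample 3 (36.6%), while 34 were lower than in both others in fibronectin sample 2 (38.1%) and 34 in Geltrex sample 3 (36.8%). Libraries deviated in genes outside the family too. Over 281 other genes with under 1500 bases of exon and a GC content of at least 55%, the median deviation was 0.48 in Collagen I sample 3, -0.30 in fibronectin sample 2, -0.22 in fibronectin sample 1 and 0.16 in control sample 1. Over 2767 genes with at least 3000 bases of exon and a GC content under 45% it was -0.26 in Collagen I sample 3 and 0.23 in fibronectin sample 2. The tested members had a median exon length of 1675 bases against 4111 for all genes tested, and 44.2% of them against 11.9% had under 1500 bases, so an alternative with offsets for GC content and exon length, chosen after seeing the data, is given beside the counts. What made these libraries differ was not tested.

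Across the family, levels were highest on Collagen I and lowest on fibronectin. The group mean was highest on Collagen I for 41 of 43 members and lowest on fibronectin for 41, and 39 members had both, against 29.5%, 31.4% and 18.1% of all genes tested. Median deviations of the members were 0.13, 0.027 and -0.022 in the control samples, 0.19, 0.13 and 0.43 on Collagen I, -0.26, -0.36 and -0.11 on fibronectin and 0.012, -0.01 and -0.094 on Geltrex. Collagen I sample 3 was the highest, Collagen I sample 2 stood level with control sample 1, and the 3 fibronectin samples were the lowest of all 12, sample 3 only just below Geltrex sample 3. Fewer differentiated cells and less of these transcripts per cell cannot be told apart in such samples.

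**Figure D1:**
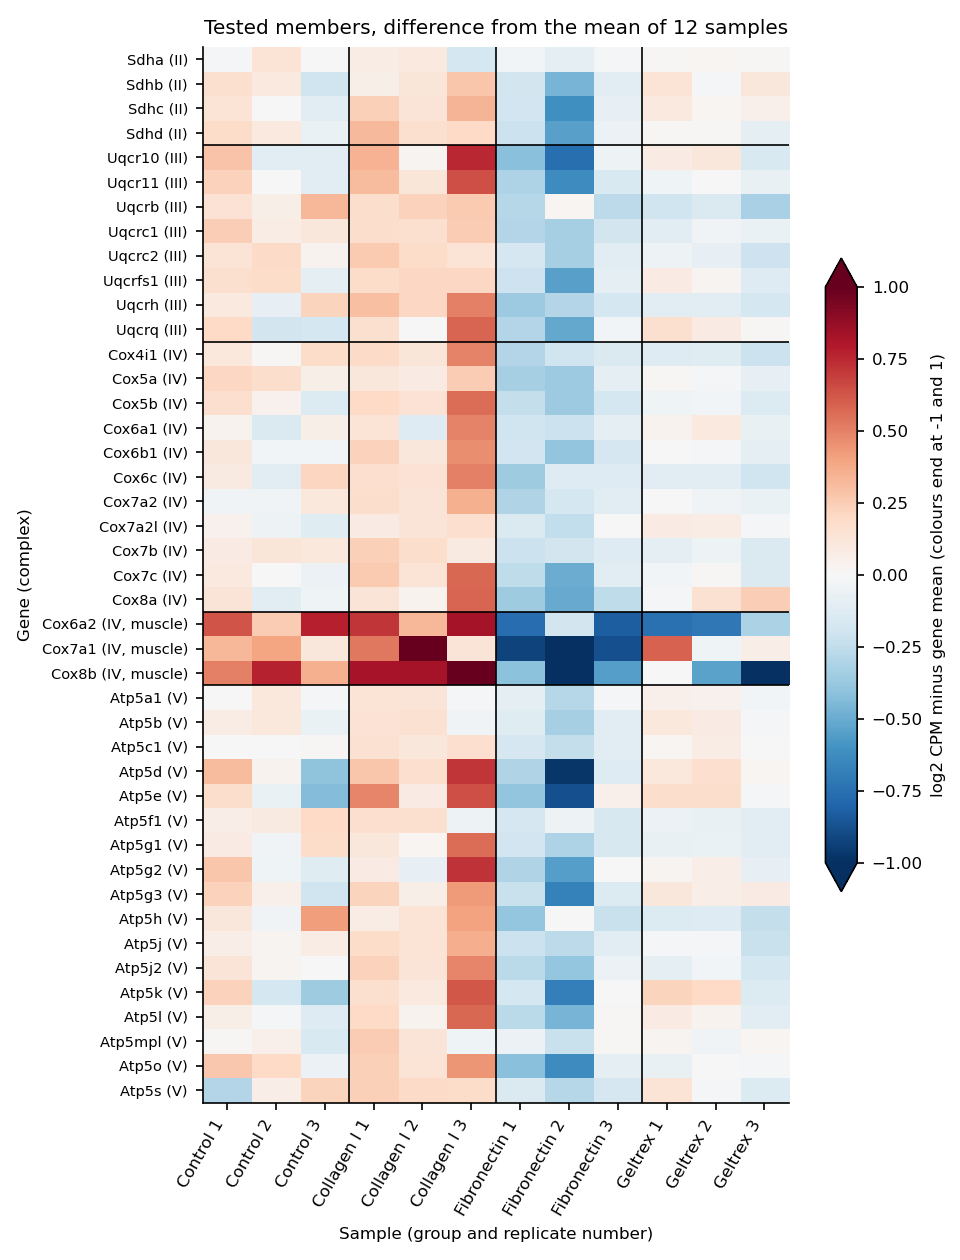
Heat map of the 43 tested members (vertical axis, by complex, muscle isoforms boxed) in the 12 samples (horizontal axis), with colour for log2 CPM minus the gene's mean over the 12 samples. Most genes are red on Collagen I, deepest in sample 3, and blue on fibronectin, deepest in sample 2, an order that held for 41 of 43 members on Collagen I over fibronectin with GC and length offsets, and the muscle isoforms carry the strongest colours.

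Collagen I over fibronectin gave the widest difference. Of 43 members, 41 were higher and 0 lower by edgeR (0 lower at an unadjusted p under 0.05 and 0 by DESeq2), where 22.1% of all genes tested were higher and 22.9% lower. Sdha and Atp5mpl were the members not called. The median log2 fold change of the members was 0.49, against 0.022 over all genes, and all 43 values were above 0, which became 41 with the GC and length offsets. Those offsets lowered the members' median to 0.35 and the count to 31, all among the 41, where 21.5% of all genes were higher. The 10 members that lost the call with the offsets were Sdhb, Cox4i1, Cox6a1, Cox7a2, Cox7a2l, Atp5a1, Atp5c1, Atp5g2, Atp5h and Atp5k. Without Collagen I sample 3 the count was 37 and the median 0.40 (17.5% of all genes higher). Without fibronectin sample 2 they were 33 and 0.42 (16.2% of all genes higher). Of the 41, 31 kept the call in all 12 omissions of 1 sample, while Atp5f1 kept it in 6 and Atp5a1 in 2.

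Fibronectin over control gave 21 members lower and 0 higher by edgeR (0 higher at an unadjusted p under 0.05 and 0 by DESeq2), where 14.7% of all genes tested were lower and 17.1% higher. The members' median was -0.29 against -0.016 for all genes, and all 43 values were below 0, or 39 with the GC and length offsets. The offsets called 15 members and 15.9% of all genes lower. The 8 members that lost the call with the offsets were Sdhd, Uqcr11, Uqcrfs1, Cox4i1, Cox6b1, Cox8a, Atp5g3 and Atp5h. Without fibronectin sample 1, fibronectin sample 2 or control sample 1 the count was 10, 13 and 13, where 10.5%, 10.4% and 9.84% of all genes were lower. Without Collagen I sample 3, which is in neither group, it was 31, where 17.8% of all genes were lower. With the Geltrex samples summed into 1 the members' median was -0.29. With each single omission, 9 of the 21 kept the call every time, and Atp5g3 kept it in 4 of 12 omissions and Cox6b1 and Atp5j2 in 3.

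Geltrex over control gave 8 members lower and 0 higher by edgeR (0 higher at an unadjusted p under 0.05 and 0 by DESeq2), where 16.6% of all genes tested were lower and 16.4% higher, so the share of members called, 18.6%, lay near that of all genes. The median was -0.06 against -0.012, and it was -0.039 without control sample 1, -0.11 without control sample 3, -0.025 without Geltrex sample 3 and -0.020 with the GC and length offsets (all genes -0.014). With those offsets 6 members were lower and 2, Cox7a2l and Cox8a, higher, while Uqcrc2, Cox4i1 and Cox7b lost the call. Over the 12 omissions of 1 sample, Cox6a2 and Uqcrb kept the call in 12, Cox8b in 9, Atp5h in 7, Uqcrc1 and Uqcrc2 in 5, and Cox4i1 and Cox7b in 2. Summing the Geltrex samples leaves 1 sample in that group, with the spread taken from the other groups. In every comparison with Geltrex this lowered the calls over all genes too, while the members' median over control was -0.061. With the 3 Geltrex samples summed into 1, only Cox6a2 of the 8 kept it. Collagen I over Geltrex gave 18 members higher and 0 lower by edgeR (0 lower at an unadjusted p under 0.05 and 0 by DESeq2), where 18.2% of all genes were higher and 19.0% lower. Here the median was 0.28 against 0.026 with 42 of 43 values above 0, or 0.18 with 35 above 0 under the GC and length offsets. The count was 9 without Geltrex sample 3 (all genes 12.9%), 12 without Collagen I sample 3 (14.9%) and 15 with the GC and length offsets (20.7%). With those offsets Uqcr11, Cox6b1, Cox7a2, Cox7b and Cox7c lost the call. Of the 18, 8 kept it in all 12 omissions. With the Geltrex samples summed into 1, 2 of the 18, Cox6a2 and Cox8b, kept it.

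Fibronectin over Geltrex gave 5 members lower, Cox7a1, Cox8a, Atp5g3, Sdhc and Atp5c1, and 0 higher by edgeR (0 higher at an unadjusted p under 0.05 and 0 by DESeq2), where 9.06% of all genes were lower and 10.3% higher. The share of 11.6% was again near that of all genes, while the median was -0.21 against -0.0049, with 41 of 43 values below 0. At an unadjusted p under 0.05, 19 were lower, a threshold at which the share of all genes was not counted. With the GC and length offsets the median was -0.13 with 38 below 0. The count was then 7, without Atp5c1, where 10.2% of all genes were lower. By DESeq2 it was 9 (all genes 10.2%), without fibronectin sample 2 it was 0 (5.71%) and without fibronectin sample 3 it was 17 (10.8%). Cox8a kept the call in 10 of 12 omissions, Cox7a1 in 9, Atp5g3 in 6 and Sdhc and Atp5c1 in 4, and 0 of the 5 kept it with the Geltrex samples summed into 1. Collagen I over control gave 0 members higher and 0 lower by edgeR, where 0.200% of all genes were higher and 0.917% lower. At an unadjusted p under 0.05, 13 members were higher and 0 lower, and the share of all genes at that threshold was not counted. DESeq2 called 0 members in either direction. The median was 0.19 against -0.0031, or 0.10 without Collagen I sample 3 and 0.11 with the GC and length offsets. Comparisons that name the same group share its 3 samples, so their values stand side by side and are not independent.

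**Figure D2:**
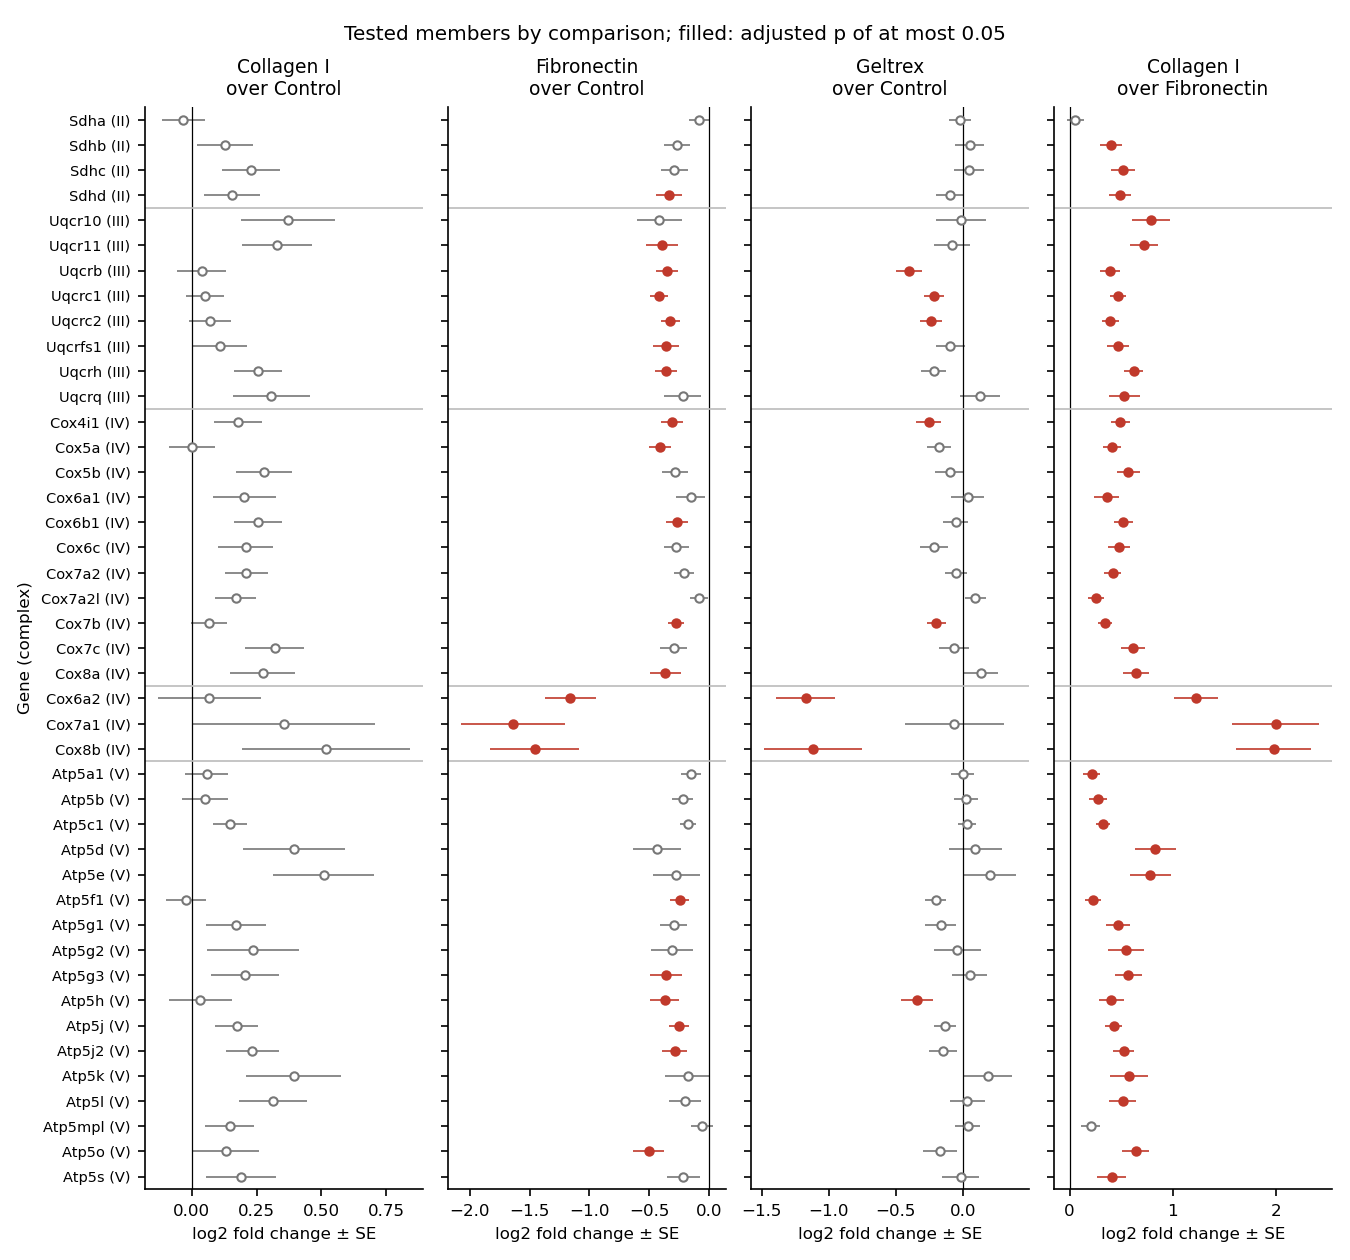
Log2 fold change (horizontal axis) with its standard error for each tested member (vertical axis, by complex) in 4 comparisons of 3 samples against 3, filled where the adjusted p of edgeR was at most 0.05. All 43 points of Collagen I over fibronectin lie above 0 (41 with GC and length offsets), and the 3 muscle isoforms lie farthest from 0 in each comparison with fibronectin shown.

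Complex II is made by 4 genes, and 3 of them rose on Collagen I over fibronectin (22.1% of all genes). Sdha, the flavoprotein that oxidises succinate, had 231, 258 and 234 CPM in the control samples, 248, 251 and 208 on Collagen I, 230.0, 219.8 and 231 on fibronectin and 237, 238 and 237 on Geltrex. Its Collagen I samples spanned nearly the whole range of the others, and Collagen I over fibronectin was 0.054 ± 0.08 (SE, adjusted p = 0.614). Sdhb, the iron-sulphur subunit, had 47.0, 44.9 and 36.6 CPM in the control samples, 43.9, 45.8 and 50.9 on Collagen I, 37.0, 30.4 and 39.1 on fibronectin and 46.2, 41.7 and 45.4 on Geltrex. The fibronectin samples lay below all Collagen I and Geltrex samples and overlapped the controls, and Sdhb rose by 0.40 ± 0.11 (log2, SE) on Collagen I over fibronectin (adjusted p = 0.00787).

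The membrane anchors of complex II, which hold its haem and quinone site, were also lowest on fibronectin by group mean. Sdhc counted 99.99, 91.1 and 84.2 CPM in the control samples, 108, 99.5 and 116 on Collagen I, 79.7, 59.4 and 85.9 on fibronectin and 97.6, 92.4 and 94.2 on Geltrex. The lowest Collagen I value exceeded all fibronectin and Geltrex values, with a log2 fold change of 0.52 ± 0.11 over fibronectin (adjusted p = 0.00184), and Sdhc was lower on fibronectin than on Geltrex at -0.34 ± 0.11 (adjusted p = 0.0490). Sdhd counted 79.5, 74.8 and 66.7 CPM in the control samples, 87.6, 78.3 and 80.3 on Collagen I, 60.3, 48.0 and 67.1 on fibronectin and 70.6, 70.5 and 65.6 on Geltrex. Fibronectin sample 2 was the lowest, fibronectin sample 3 reached the lowest control, and Sdhd fell by 0.33 ± 0.11 on the log2 scale on fibronectin over control (adjusted p = 0.0259). Per kilobase of exon, Sdhd was the most abundant of the 4 at 57.5 CPM, close to Sdha at 57.0, and Sdhb the least at 18.9.

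In complex III, all 8 members rose on Collagen I over fibronectin (22.1% of all genes). On fibronectin over control 6 of 8 fell (14.7% of all genes), and on Geltrex over control 3 of 8, Uqcrb, Uqcrc1 and Uqcrc2, fell (16.6% of all genes). Uqcrh, the hinge protein by which cytochrome c1 meets cytochrome c and the most abundant member of the complex at 104 CPM per kilobase, measured 135, 119 and 147 CPM in the control samples, 155, 146 and 179 on Collagen I, 97.9, 103 and 112 on fibronectin and 117, 117 and 112 on Geltrex. Every fibronectin sample lay below every sample of the other groups, and every Geltrex sample below every control. Uqcrh rose by 0.62 ± 0.09 on Collagen I over fibronectin (log2, SE, adjusted p = 9.07e-05), the smallest adjusted p among the members in that comparison, and by 0.47 ± 0.09 over Geltrex (adjusted p = 0.000969). Uqcrq, a small subunit near the quinone-binding protein and the least abundant at 16.4 CPM per kilobase, measured 33.9, 25.9 and 26.1 CPM in the control samples, 32.8, 29.4 and 44.1 on Collagen I, 24.1, 20.6 and 28.9 on fibronectin and 32.8, 31.1 and 29.8 on Geltrex. Its fibronectin values reached into the controls, and only Collagen I over fibronectin was called (0.53 ± 0.15, adjusted p = 0.0100).

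Uqcrc1 and Uqcrc2, the large core proteins on the matrix side, separated control and Collagen I from the other surfaces. Uqcrc1 came to 89.1, 79.3 and 81.1 CPM in the control samples, 84.8, 84.0 and 89.8 on Collagen I, 61.2, 59.7 and 66.1 on fibronectin and 69.5, 73.5 and 71.6 on Geltrex. All 6 samples on control and Collagen I surfaces were above all 6 others, and Uqcrc1 fell by 0.42 ± 0.07 on fibronectin (adjusted p = 0.000596) and by 0.22 ± 0.07 on Geltrex (adjusted p = 0.0341) on the log2 scale over control. Uqcrc2 came to 118, 122 and 109.7 CPM in the control samples, 128, 121 and 117 on Collagen I, 95.3, 84.9 and 99.3 on fibronectin and 103, 101 and 92.4 on Geltrex. It fell by 0.32 ± 0.08 on fibronectin (adjusted p = 0.00668) and by 0.24 ± 0.08 on Geltrex (adjusted p = 0.0345), with no overlap of either group with the controls. Of its exon bases, 19.8% lie opposite Pdzd9, and since the strand rule of the counting is not stated, reads of the pair cannot be told apart there. Uqcrb, which helps to shape the quinone pocket, came to 84.0, 79.2 and 96.1 CPM in the control samples, 85.9, 89.3 and 91.4 on Collagen I, 62.5, 77.1 and 63.6 on fibronectin and 66.4, 68.9 and 61.0 on Geltrex. Geltrex and fibronectin overlapped below the controls, the log2 fold changes over control being -0.40 ± 0.10 (adjusted p = 0.00414) and -0.35 ± 0.10 (adjusted p = 0.0105). The other 3 members, the Rieske protein gene Uqcrfs1 and the small subunits Uqcr10 and Uqcr11, rose by 0.47 to 0.79 on Collagen I over fibronectin.

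Complex IV held the muscle isoforms, which had the 3 widest log2 fold changes of the family on fibronectin over control and on Collagen I over fibronectin. Cox6a2 (ENSMUSG00000030785), the heart and muscle form of a regulatory subunit at the rim of the enzyme, lies at chr7:128205435-128206387 on the minus strand of GRCm38. It measured 5.89, 4.51 and 6.54 CPM in the control samples, 6.24, 4.76 and 6.77 on Collagen I, 2.19, 3.31 and 2.10 on fibronectin and 2.22, 2.27 and 3.02 on Geltrex. The control and Collagen I samples overlapped, the fibronectin and Geltrex samples overlapped, and every sample of the first pair of groups was above every sample of the second pair. Cox6a2 fell by 1.16 ± 0.21 on the log2 scale on fibronectin (adjusted p = 0.000786) and by 1.17 ± 0.22 on Geltrex (adjusted p = 0.000600) over control. Collagen I over fibronectin was 1.23 ± 0.21 (adjusted p = 0.000339) and over Geltrex 1.24 ± 0.22 (adjusted p = 0.000364), and these 4 calls held without each sample in turn. The gene shares 10.3% of its exon bases with Itgad on the other strand.

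Cox8b (ENSMUSG00000025488), the muscle form of the smallest class of subunit in the membrane part of the oxidase, lies at chr7:140898945-140900446, also on the minus strand. Its levels were 2.03, 2.46 and 1.83 CPM in the control samples, 2.56, 2.56 and 3.97 on Collagen I, 1.04, 0.293 and 0.932 on fibronectin and 1.41, 0.948 and 0.541 on Geltrex. They rest on 7 to 92 counts a sample, with 28, 7 and 24 on fibronectin and 33, 23 and 12 on Geltrex. All Collagen I samples were above all controls, and all controls above all fibronectin and Geltrex samples, which overlapped. Cox8b fell by 1.46 ± 0.37 on fibronectin over control (log2, SE, adjusted p = 0.00778) and by 1.12 ± 0.37 on Geltrex over control (adjusted p = 0.0286). The Geltrex call was lost without control sample 2, Geltrex sample 2 or Geltrex sample 3, and its values over the 12 omissions of 1 sample ran from -1.48 to -0.84. Collagen I over fibronectin was 1.98 ± 0.37 (adjusted p = 0.000526) and over Geltrex 1.63 ± 0.36 (adjusted p = 0.00223), while Collagen I over control, 0.52 ± 0.32, had an adjusted p of 0.464.

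Cox7a1 (ENSMUSG00000074218), the heart and muscle form of a subunit at the dimer interface, lies at chr7:30184144-30186078 on the plus strand. Its levels were 0.557, 0.587 and 0.467 CPM in the control samples, 0.650, 0.929 and 0.474 on Collagen I, 0.186, 0.126 and 0.194 on fibronectin and 0.683, 0.412 and 0.451 on Geltrex. Only the fibronectin samples stood apart, below all 9 others, and the Geltrex samples overlapped the controls. Cox7a1 fell by 1.64 ± 0.44 on fibronectin over control (log2, SE, adjusted p = 0.00971) and by 1.58 ± 0.44 on fibronectin over Geltrex (adjusted p = 0.0209), and rose by 1.99 ± 0.42 on Collagen I over fibronectin (adjusted p = 0.00150). Geltrex over control was -0.063 ± 0.37 (adjusted p = 0.919), unlike the other muscle isoforms by its value, although the difference between the genes was not tested. These values rest on 3 to 25 counts a sample, and the call over Geltrex was lost without fibronectin sample 1, fibronectin sample 2 or Geltrex sample 1, with values from -1.72 to -1.32 over all samples left out.

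The ubiquitous counterparts were far more abundant. Cox6a1 measured 51.5, 45.6 and 52.5 CPM in the control samples, 55.3, 46.0 and 71.0 on Collagen I, 43.8, 43.3 and 47.3 on fibronectin and 51.6, 53.9 and 47.7 on Geltrex. Collagen I sample 3 was the highest and Collagen I sample 2 lay below fibronectin sample 3, and the log2 fold change over fibronectin, 0.36 ± 0.12 (adjusted p = 0.0259), turned to -0.13 with the GC and length offsets. Cox7a2 measured 48.2, 48.4 and 53.3 CPM in the control samples, 55.8, 54.2 and 63.3 on Collagen I, 40.04, 43.9 and 45.7 on fibronectin and 49.2, 48.2 and 47.3 on Geltrex. Its Collagen I samples were above, and its fibronectin samples below, every sample of the other groups, with 0.42 ± 0.08 on Collagen I over fibronectin (adjusted p = 0.000888). Cox8a measured 62.3, 53.2 and 55.3 CPM in the control samples, 62.6, 58.4 and 85.6 on Collagen I, 44.6, 40.3 and 47.8 on fibronectin and 56.3, 63.5 and 67.7 on Geltrex. Fibronectin was below the other groups in every sample, and Cox8a fell by 0.36 ± 0.13 over control (log2, SE, adjusted p = 0.0379) and by 0.50 ± 0.13 over Geltrex (adjusted p = 0.0112). Per kilobase of exon the muscle isoforms averaged 6.10 CPM (Cox6a2), 4.76 CPM (Cox8b) and 0.890 CPM (Cox7a1) over the 12 samples, against 72.4 CPM for Cox6a1, 93.9 CPM for Cox8a and 52.7 CPM for Cox7a2.

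**Figure D3:**
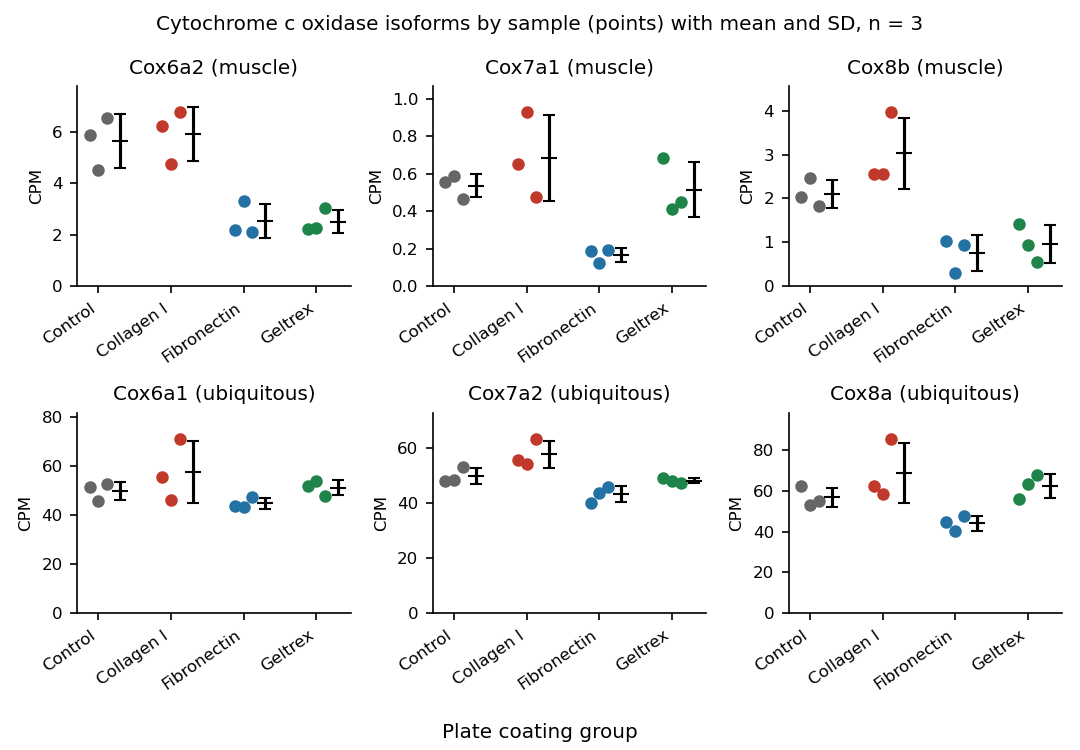
CPM (vertical axes, each from 0 on its own scale) of the muscle isoforms in the upper panels and their ubiquitous counterparts in the lower panels for the 4 groups (horizontal axis), with a point for each sample and the mean with SD of the 3. Cox6a2 and Cox8b are lower in every fibronectin and Geltrex sample than in every control and Collagen I sample, while Cox7a1 is low on fibronectin only.

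The muscle isoform was also set against its counterpart inside each sample, as the log2 ratio of counts plus 0.5 per kilobase of exon, which hardly depends on the library's depth. The GC and length offsets were not applied to these ratios, so differences between libraries in those respects may remain in them. For Cox6a2 over Cox6a1 the ratios were -3.08, -3.29 and -2.96 in the control samples, -3.10, -3.22 and -3.34 on Collagen I, -4.26, -3.66 and -4.44 on fibronectin and -4.48, -4.51 and -3.93 on Geltrex. The fibronectin and Geltrex samples all lay below the control and Collagen I samples, and the groups differed by an exact permutation test over all 369600 arrangements of the 12 samples (one-sided on the sum of squares between groups, p = 0.00344, 0.0103 after adjustment over the 3 ratios, smallest possible p 6.49e-05). For Cox8b over Cox8a the ratios were -4.15, -3.64 and -4.12 in the control samples, -3.82, -3.72 and -3.64 on Collagen I, -4.61, -6.22 and -4.87 on fibronectin and -4.52, -5.25 and -6.13 on Geltrex. Again both low groups lay below both high groups, but with a wide spread within fibronectin and Geltrex (SD 0.86 and 0.81), and the exact permutation p was 0.0321 (adjusted 0.0321). It rose to between 0.0599 and 0.0681 without any 1 control or Collagen I sample or without Geltrex sample 2, and to 0.0507 with the Geltrex samples summed into 1. For Cox7a1 over Cox7a2 the ratios were -5.57, -5.50 and -5.95 in the control samples, -5.56, -5.02 and -6.18 on Collagen I, -6.80, -7.41 and -6.92 on fibronectin and -5.31, -5.98 and -5.82 on Geltrex. Only fibronectin stood below the rest, with an exact permutation p of 0.0168 (adjusted 0.0252). Permuted within replicate number (replicate block), its exact p was 0.0608. Pairs of groups were not tested for the ratios.

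**Figure D4:**
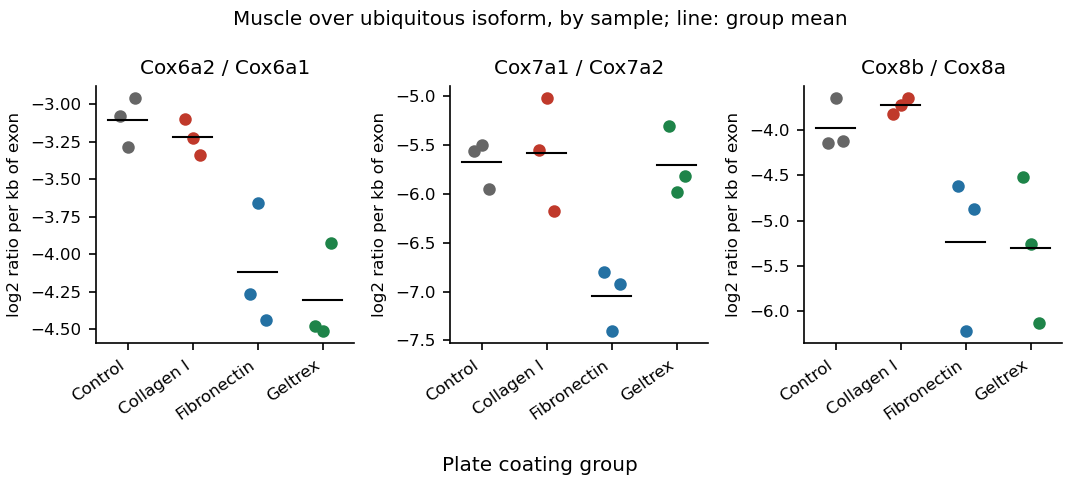
Log2 ratio per kilobase of exon (vertical axes) of each muscle isoform over its ubiquitous counterpart for the 4 groups (horizontal axis), with a point for each sample and a line at the mean of 3. Fibronectin means are -4.12, -7.04 and -5.23 from left to right, and the Geltrex mean is near them for Cox6a2 and Cox8b and near the control mean for Cox7a1.

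For these isoform pairs the 250 bases before the start site annotated by RefSeq (GRCm38.p6) are shown, 5′ to 3′ on the strand of the gene, for the 5 of these 6 genes that matched (34 of the 47 symbols had an entry, and Cox6a2 had none). Capitals mark matches on either strand to the E-box CANNTG, the ERR half-site AAGGTCA, the ETS motif CCGGAAG, the YY1 motif AANATGGCG or the NRF1 and MEF2 motifs.
Cox7a1: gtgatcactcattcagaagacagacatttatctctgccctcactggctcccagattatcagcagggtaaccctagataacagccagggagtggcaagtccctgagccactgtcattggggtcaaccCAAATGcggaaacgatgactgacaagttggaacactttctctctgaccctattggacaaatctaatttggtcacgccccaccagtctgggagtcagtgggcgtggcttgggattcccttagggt
Cox7a2: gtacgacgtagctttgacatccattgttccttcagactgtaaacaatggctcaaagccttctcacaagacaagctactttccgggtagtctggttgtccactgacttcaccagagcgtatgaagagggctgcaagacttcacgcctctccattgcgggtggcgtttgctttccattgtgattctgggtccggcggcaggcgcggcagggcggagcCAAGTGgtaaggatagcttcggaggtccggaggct
Cox8b: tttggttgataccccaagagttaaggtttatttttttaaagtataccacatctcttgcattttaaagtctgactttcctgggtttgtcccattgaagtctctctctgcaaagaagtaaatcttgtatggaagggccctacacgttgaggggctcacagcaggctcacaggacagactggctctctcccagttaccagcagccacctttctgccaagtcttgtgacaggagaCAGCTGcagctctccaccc
Cox8a: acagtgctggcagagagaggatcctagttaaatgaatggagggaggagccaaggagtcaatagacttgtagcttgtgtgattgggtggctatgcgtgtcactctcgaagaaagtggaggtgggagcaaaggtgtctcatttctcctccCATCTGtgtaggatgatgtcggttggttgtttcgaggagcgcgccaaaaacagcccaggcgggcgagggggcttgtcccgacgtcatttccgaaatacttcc
Cox6a1: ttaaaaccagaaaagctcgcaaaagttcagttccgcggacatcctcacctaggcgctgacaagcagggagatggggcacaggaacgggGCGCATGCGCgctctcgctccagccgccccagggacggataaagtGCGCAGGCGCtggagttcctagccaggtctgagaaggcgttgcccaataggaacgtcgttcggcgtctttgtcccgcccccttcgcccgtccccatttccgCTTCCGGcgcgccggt
These windows lie at chr7:30183921-30184170 on the plus strand (Cox7a1) and, on the minus strand, at chr9:79759854-79760103 (Cox7a2), chr7:140900447-140900696 (Cox8b), chr19:7217617-7217866 (Cox8a) and chr5:115348959-115349208 (Cox6a1). Cox7a1, Cox7a2, Cox8b and Cox8a each held 1 E-box match, that of Cox8b being CAGCTG, and Cox6a1 held 2 NRF1 matches and 1 ETS match. Over the 34 members with an entry the ETS motif was in 26.5% and the NRF1 motif in 20.6%, against 7.83% and 4.23% of 27025 genes with RefSeq promoter windows of the same length. A gene counted when any of its windows held the motif. An E-box was in 64.7% against 69.3%, CAGCTG in 5.88% against 14.7%, the ERR half-site in 5.88% against 4.7%, the YY1 motif in 2.94% against 1.29% and the MEF2 motif in 0 against 3.42%. A match describes letters of the window and was not tied to any factor here.

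The 11 ubiquitous members of complex IV all rose on Collagen I over fibronectin, by 0.25 to 0.64 (100% against 22.1% of all genes). On fibronectin over control 5 of 11 fell (45.5% against 14.7% of all genes), and on Geltrex over control 2 of 11 (18.2%, near the 16.6% of all genes). With the GC and length offsets the value of Cox6a1 alone turned below 0 among those called on Collagen I over fibronectin. Cox6b1, which joins the monomers of the oxidase on the intermembrane side and was the most abundant of the complex at 131 CPM per kilobase, had 99.5, 90.2 and 90.5 CPM in the control samples, 108, 99.5 and 127 on Collagen I, 80.8, 70.2 and 81.8 on fibronectin and 91.9, 91.5 and 86.3 on Geltrex. Fibronectin lay below and Collagen I above all other samples, with Collagen I sample 2 barely above control sample 1, and Cox6b1 fell by 0.27 ± 0.09 (log2, SE) on fibronectin over control (adjusted p = 0.0397). Cox4i1, the form of subunit 4 used by most tissues, had 196, 184 and 207 CPM in the control samples, 209, 198 and 257 on Collagen I, 149, 159 and 165 on fibronectin and 167, 168 and 157 on Geltrex. Fibronectin and Geltrex overlapped below the controls, and Cox4i1 fell by 0.31 ± 0.09 (adjusted p = 0.0184) and 0.25 ± 0.09 (adjusted p = 0.0463) over control. Emc8 covers 9.94% of its exon bases on the other strand.

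Cox7b, an X-linked subunit, had 105, 108 and 107 CPM in the control samples, 117, 112 and 106 on Collagen I, 85.9, 87.7 and 91.1 on fibronectin and 93.2, 95.9 and 90.2 on Geltrex. Its 6 fibronectin and Geltrex values were below its 6 control and Collagen I values, with -0.27 ± 0.07 (adjusted p = 0.00652) on fibronectin and -0.20 ± 0.07 (adjusted p = 0.0372) on Geltrex over control. Cox7a2l, related to Cox7a2 and known for joining complexes III and IV into supercomplexes, had 95.8, 89.8 and 85.7 CPM in the control samples, 98.6, 102 and 105 on Collagen I, 84.4, 78.6 and 92.8 on fibronectin and 98.8, 98.3 and 92.3 on Geltrex. Fibronectin overlapped both control and Geltrex, and the only call was Collagen I over fibronectin (0.25 ± 0.08, adjusted p = 0.0153). Processed copies share 75-base stretches with Cox7c (25.0% of its positions, Gm10012 and Gm12338), Cox5b (17.2%, Gm11273) and Cox7a2l (13.4%, Gm6969), and how reads matching several places were counted is not stated, so these levels are uncertain.

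The isoforms of other tissues were at or near 0 and were not tested. Cox4i2, a lung and hypoxia isoform, had 12 counts over the 12 samples, the testis isoform Cox6b2 had 13, Cox7b2 had 14 and Cox8c had 0.

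Of the 17 tested members of complex V, 16 rose on Collagen I over fibronectin (94.1% against 22.1% of all genes), 6 fell on fibronectin over control (35.3% against 14.7%) and 1, Atp5h, fell on Geltrex over control (5.88% against 16.6% of all genes). Atp5h, subunit d of the stalk, shares 18.9% of its 75-base stretches with Gm10250, so its level is uncertain for the reason given for Cox7c. Atp5b, the catalytic beta subunit and the most abundant member at 263 CPM per kilobase, had 1163, 1191 and 1059 CPM in the control samples, 1226, 1229.7 and 1083 on Collagen I, 1020.1, 881 and 1030.3 on fibronectin and 1190.1, 1175 and 1101 on Geltrex. Each fibronectin sample was below each sample of the other groups, and Atp5b rose by 0.27 ± 0.09 on Collagen I over fibronectin (log2, SE, adjusted p = 0.0199), while -0.22 ± 0.09 over control missed the threshold (adjusted p = 0.0681). Atp5a1, its alpha partner in the catalytic head, had 499, 537 and 492 CPM in the control samples, 550.1, 546 and 495 on Collagen I, 466, 411 and 496 on fibronectin and 519, 517 and 489.5 on Geltrex. Its groups all overlapped, and the log2 fold change of 0.21 ± 0.08 on Collagen I over fibronectin had an adjusted p of 0.0480, just inside the threshold. Atp5c1, the rotating gamma shaft, had 198, 198 and 199.9 CPM in the control samples, 221, 215 and 224 on Collagen I, 176, 168 and 184 on fibronectin and 202, 209 and 198 on Geltrex. Its Collagen I samples were above and its fibronectin samples below all others, with 0.32 ± 0.07 between them (adjusted p = 0.00133) and -0.21 ± 0.07 on fibronectin over Geltrex (adjusted p = 0.0425).

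The c subunit of the rotor ring is encoded by 3 genes whose mature proteins are identical, and all 3 rose on Collagen I over fibronectin (22.1% of all genes). Atp5g1 gave 41.0, 37.9 and 44.0 CPM in the control samples, 41.9, 39.4 and 57.1 on Collagen I, 34.0, 31.4 and 34.6 on fibronectin and 36.8, 37.0 and 35.9 on Geltrex. It separated the 6 control and Collagen I samples from the 6 others and rose by 0.47 ± 0.12 on Collagen I over fibronectin (adjusted p = 0.00422). Atp5g2 gave 83.8, 67.2 and 63.5 CPM in the control samples, 73.3, 65.2 and 114 on Collagen I, 56.3, 47.3 and 69.4 on fibronectin and 70.4, 72.3 and 65.5 on Geltrex. All groups overlapped and Collagen I sample 3 stood high, and its call on Collagen I over fibronectin (0.55 ± 0.18, adjusted p = 0.0200) was lost with the GC and length offsets, as listed above. Atp5g3 gave 159, 139.9 and 117 CPM in the control samples, 158, 141 and 182 on Collagen I, 116, 84.8 and 123 on fibronectin and 146, 141 and 143 on Geltrex. Fibronectin was below Collagen I and Geltrex in every sample but overlapped the controls, with 0.57 ± 0.13 on Collagen I over fibronectin (adjusted p = 0.00287) and -0.41 ± 0.13 on fibronectin over Geltrex (adjusted p = 0.0400). Per kilobase of exon, Atp5g3 stood at 63.0 CPM, Atp5g2 at 42.2 CPM and Atp5g1 at 7.99 CPM.

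Among the stalk subunits, Atp5f1 (subunit b) gave 251, 257 and 276 CPM in the control samples, 271, 269 and 233 on Collagen I, 214, 232 and 215 on fibronectin and 231, 229 and 222 on Geltrex. Collagen I sample 3, high for most members, was here the lowest of its group, and Atp5f1 fell by 0.25 ± 0.08 on fibronectin over control (log2, SE, adjusted p = 0.0245). Atp5j (coupling factor F6) gave 81.3, 79.3 and 82.0 CPM in the control samples, 88.4, 85.5 and 99.8 on Collagen I, 66.9, 64.9 and 71.8 on fibronectin and 76.8, 77.2 and 66.8 on Geltrex. Collagen I was above every other sample, fibronectin and Geltrex overlapped below the controls, and Atp5j fell by 0.25 ± 0.08 on fibronectin over control (adjusted p = 0.0293), with 12.7% of its exon bases opposite Gabpa. The widest fall over control in the complex was that of Atp5o, the stalk protein OSCP, at -0.50 ± 0.13 (adjusted p = 0.00730), but 35.6% of its exon bases lie opposite D430001F17Rik and Gm15976 and 12.3% within its second identifier, which had 0 counts. Atp5d, the delta subunit of the central stalk, had the widest rise of any ubiquitous member on Collagen I over fibronectin, 0.83 ± 0.20 (adjusted p = 0.00332). Atp5s, named coupling factor B and the least abundant tested member of the complex at 3.59 CPM per kilobase, gave 5.93, 7.63 and 8.49 CPM in the control samples, 8.58, 8.29 and 8.28 on Collagen I, 6.57, 5.94 and 6.45 on fibronectin and 7.99, 7.21 and 6.58 on Geltrex. Control sample 1 was the lowest of all 12, and only Collagen I over fibronectin was called (0.41 ± 0.14, adjusted p = 0.0253).

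Genes that work with these subunits but fall outside the name rule were taken from fixed lists, apart from Ndufa4 and Usmg5, which were added after the values were seen. Cyc1, the cytochrome c1 of complex III, had 72.1, 65.1 and 52.7 CPM in the control samples, 72.7, 71.2 and 81.1 on Collagen I, 46.9, 32.6 and 54.8 on fibronectin and 63.2, 61.0 and 58.6 on Geltrex. Fibronectin sample 2 was lowest and sample 3 reached into the controls, and Cyc1 fell by 0.50 ± 0.15 on fibronectin over control (adjusted p = 0.0171). Cycs, the electron carrier cytochrome c, and Atpif1, the inhibitor of ATP synthase, were each called in 0 of 6 comparisons by edgeR, 0 at an unadjusted p under 0.05 and 0 by DESeq2. Ndufa4, a subunit of complex IV despite its symbol, rose by 0.42 ± 0.09 on Collagen I over fibronectin (adjusted p = 0.00154) and Usmg5, a small subunit of complex V, by 0.38 ± 0.11 (adjusted p = 0.0127).

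Of 39 assembly factors listed, 38 were in the table and 36 were tested, Pet117 and Sco2 being at 0 counts. Among them 11 rose on Collagen I over fibronectin (30.6%, against 22.1% of all genes). On fibronectin over control 6 fell (16.7% against 14.7%), including Surf1 of complex IV and Uqcc1 and Uqcc2 of complex III. On Geltrex over control 5 fell (13.9% against 16.6%), and these shares of falls lay near those of all genes. Only Higd1a rose on Geltrex over control (2.78% against 16.4%). On Collagen I over Geltrex 11 rose (30.6% against 18.2%) and Higd1a fell (2.78% against 19.0%). On fibronectin over Geltrex 2 (Coa4 and Cox17) were higher and 2 (Uqcc1 and Cox19) lower, each 5.56% against 10.3% and 9.06%.

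The partners encoded in mitochondrial DNA were 6, and 3 of them rose on Collagen I over fibronectin (50% against 22.1% of all genes). These were mt-Co1, mt-Co2 and mt-Co3, the catalytic core of complex IV, by 0.67 ± 0.20, 0.93 ± 0.21 and 1.06 ± 0.32 on the log2 scale. In that comparison mt-Cytb, mt-Atp6 and mt-Atp8 were not called. Without Collagen I sample 3, mt-Co1 and mt-Co3 were at 0.32 ± 0.14 and 0.44 ± 0.23 and lost the call (adjusted p = 0.0934 and 0.143), as they did without fibronectin sample 1, while mt-Co2 kept it at 0.64 ± 0.18. Over Geltrex mt-Co1, mt-Co2 and mt-Co3 were called too (50% against 18.2% of all genes), but mt-Co1 and mt-Co3 lost the call without Collagen I sample 3. In complex V, mt-Atp6 fell by 1.56 ± 0.41 on fibronectin over control (adjusted p = 0.00959), and it was also called lower on fibronectin than on Geltrex. Summed over the 6 genes, Collagen I sample 3 reached 55300.0 CPM against 31543 and 28990.0 CPM in samples 1 and 2, and the other groups ran from 21222 to 36376 CPM. Nuclear copies of mitochondrial DNA exist in the mouse genome, so these levels depend on a rule for reads with several matches that is not stated.

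Of 15 regulators of nuclear respiratory genes, 12 were tested, Esrrb, Esrrg and Ppara falling below the filter. Ppargc1a, a coactivator of mitochondrial genes, had 1.99, 2.35 and 1.996 CPM in the control samples, 4.42, 4.87 and 2.54 on Collagen I, 2.41, 1.76 and 1.51 on fibronectin and 1.41, 1.52 and 1.62 on Geltrex. Collagen I was above all other samples, and Collagen I sample 3 had the lowest Ppargc1a of its group. The rise was 1.06 ± 0.24 over fibronectin (adjusted p = 0.00247), and a link between Ppargc1a and the members was not tested. Esrra, the nuclear receptor ERR alpha, had 14.6, 14.6 and 9.77 CPM in the control samples, 12.7, 14.3 and 17.0 on Collagen I, 9.10, 5.40 and 10.6 on fibronectin and 11.9, 12.6 and 10.8 on Geltrex. Fibronectin sample 2 was again lowest, and Esrra fell by 0.64 ± 0.20 on fibronectin over control (adjusted p = 0.0268). Of the 12, Gabpa, Gabpb1, Gabpb2, Pparg and Pprc1 were lower on Collagen I than on fibronectin (41.7%, against 22.9% of all genes). Ppargc1a and Esrra were higher (16.7% against 22.1%). On Collagen I over Geltrex, Gabpa, Gabpb1, Gabpb2 and Pparg were lower (33.3% against 19.0%) and Ppargc1a was higher (8.33% against 18.2%). Gabpb2 and Pparg rose on fibronectin and on Geltrex over control (16.7% each, near the 17.1% and 16.4% of all genes). On Geltrex over control Pprc1 fell (8.33% against 16.6%). Gabpb2, a subunit of the ETS factor GABP, had 46.8, 51.1 and 48.9 CPM in the control samples and 54.2, 55.1 and 50.6 on Collagen I. It had 93.9, 95.2 and 79.7 CPM on fibronectin and 63.7, 66.6 and 65.7 on Geltrex. It rose by 0.87 ± 0.08 on fibronectin over control with no overlap of the groups (adjusted p = 9.96e-07). Nrf1, Tfam, Yy1, Ppard and Ppargc1b were not called in any of the 6 comparisons.

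Lists of other mitochondrial genes were counted beside the family. Of 37 tested genes named as complex I subunits, Ndufa4 included, 34 rose on Collagen I over fibronectin (91.9% against 22.1% of all genes, median 0.49) and 27 fell on fibronectin over control (73.0% against 14.7%, median -0.35). On Collagen I over Geltrex 26 rose (70.3% against 18.2%) and on Geltrex over control 11 fell (29.7% against 16.6%), and Ndufa4, a complex IV subunit, is among the 34, the 27 and the 26. Of 77 tested mitochondrial ribosomal protein genes, 48 rose on Collagen I over fibronectin (62.3%, median 0.33), 26 fell on fibronectin over control (33.8%) and 30 rose on Collagen I over Geltrex (39.0%). On Geltrex over control 14 fell, and this 18.2% lay near the 16.6% of all genes. Over 1033 other genes with under 1500 bases of exon the median of Collagen I over fibronectin was 0.29, and over the 281 of them that were also GC-rich it was 0.42, beside 0.49 for the members. How much of the members' difference belongs to the length and base composition of their transcripts was not tested beyond the offsets given above.

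**Figure D5:**
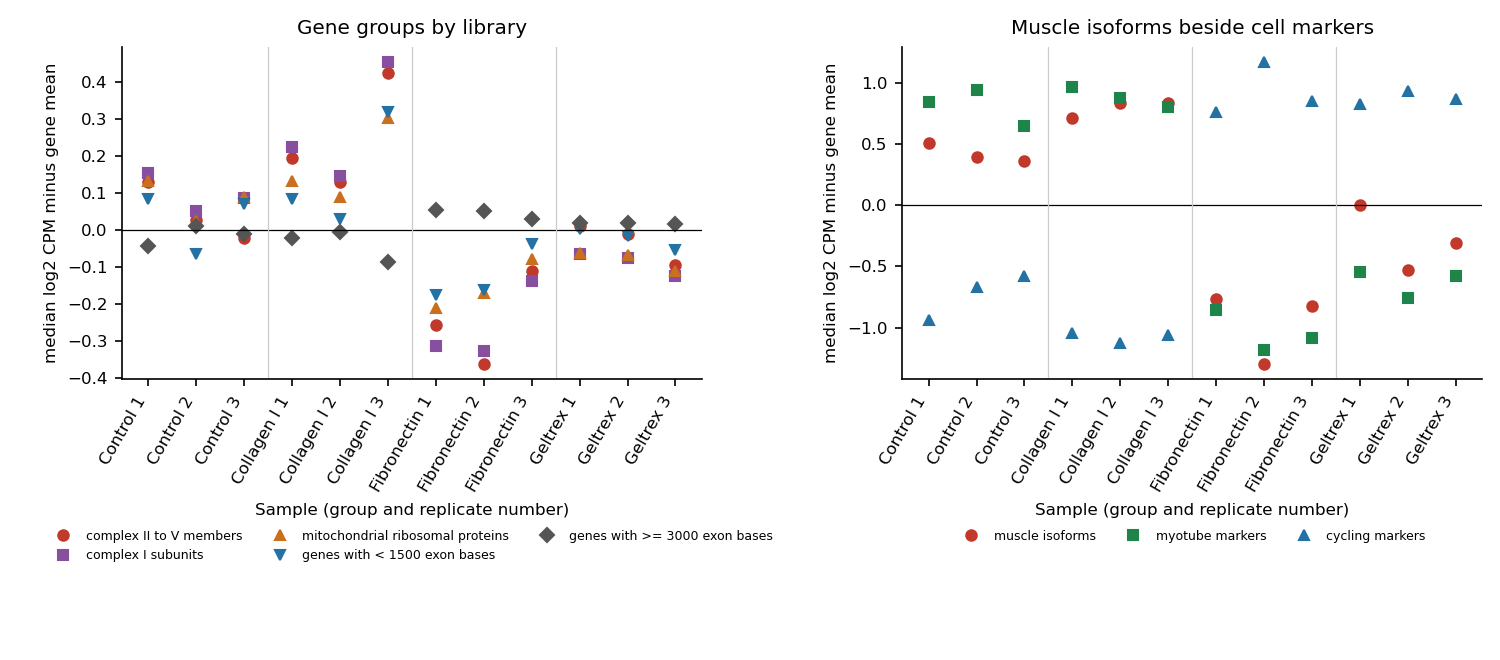
Median log2 CPM minus gene mean (vertical axes) in each of the 12 samples (horizontal axes) for the complex II to V members beside genes named as complex I (Ndufa4 included), mitochondrial ribosomal and short and long genes (left), and for the 3 muscle isoforms beside myotube and cycling markers (right). Members, complex I and short genes stand highest in Collagen I sample 3. The median of the 3 muscle isoforms is high where myotube markers are high and cycling markers low, although Cox7a1 by itself overlaps the controls on Geltrex.

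Markers of differentiation moved with the groups as well. All 14 myotube markers, with Mylpf the most abundant and none at 0, fell on fibronectin and on Geltrex over control (14.7% and 16.6% of all genes). They were higher on Collagen I than on either (22.1% and 18.2% of all genes), and 7 of 14 were lower on fibronectin than on Geltrex (9.06%). Their summed levels were 12347, 12478 and 11329 CPM in the control samples, 12742, 12103 and 11822 on Collagen I, 4132, 3630.0 and 3826 on fibronectin and 5587, 5309 and 5761 on Geltrex. All 8 cycling markers, with Top2a the most abundant and none at 0, rose on fibronectin and Geltrex over control (17.1% and 16.4% of all genes). They were lower on Collagen I than on either (22.9% and 19.0% of all genes). Their sums were 179, 209 and 231 CPM in the control samples, 159, 156 and 165 on Collagen I, 589, 783 and 630.1 on fibronectin and 625, 671 and 673 on Geltrex. The myotube and cycling sums thus split control and Collagen I from fibronectin and Geltrex, as Cox6a2 and Cox8b did, and their part in the result was not tested.

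All 3 myoblast markers were tested, none at 0, and Myod1, the most abundant, fell on Geltrex over control (33.3% of the 3, against 16.6% of all genes). Their sums were 155, 160.2 and 166 CPM in the control samples, 157, 143 and 169 on Collagen I, 151, 149 and 142 on fibronectin and 137, 144 and 139 on Geltrex. Brown fat also uses Cox7a1 and Cox8b, but of its 6 markers 0 were tested, with Prdm16 and Cidea at 0 counts and sums of at most 0.388 CPM. Of the 6 cardiac markers 4 were tested, Tnnt2 and Myh6 falling and Nppb rising on both fibronectin and Geltrex over control, with Tnnt2 by far the most abundant. The falls were 50% of the 4, against 14.7% and 16.6% of all genes, and the rise 25%, against 17.1% and 16.4%. The cardiac sums were 879, 821 and 867 CPM in the control samples, 804, 779 and 872 on Collagen I, 265, 268 and 222 on fibronectin and 303, 279.6 and 324 on Geltrex. Among fibroblast markers 5 of 6 were tested, with Col3a1 the most abundant and Thy1 at 0. Dcn, Lum and Col1a1 fell on fibronectin and Geltrex over control (60% of the 5, against 14.7% and 16.6% of all genes). On Collagen I over fibronectin and over Geltrex these 3 were higher (60% against 22.1% and 18.2%) and Pdgfra was lower (20% against 22.9% and 19.0%). On fibronectin over Geltrex the 3 were higher (60% against 10.3%). Fibroblast sums were 6051, 6194 and 6636 CPM in the control samples, 6646, 6258 and 5826 on Collagen I, 6179.9, 5389.8 and 6468 on fibronectin and 5624, 5448 and 5249.6 on Geltrex. Endothelial markers were tested in 0 of 4 (Tie1 at 0, Pecam1 most abundant, sums of at most 0.390 CPM), and of 4 macrophage markers only Cd68, the most abundant, was tested and not called, with Adgre1 at 0 and sums of at most 1.59 CPM. The part of these other cell types in the result was not tested.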

How the data were processed

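The deposited values were gene counts, made by the authors, per their processing notes, with FastQC, Trimmomatic, HISAT2 and featureCounts, with DESeq2 for their own testing. Genome build, annotation release, strand rule and the treatment of reads with several matches were not given in the sources used here. Genes were tested with edgeR 4.0.16 in R 4.3.3 (quasi-likelihood, TMM scaling, 4 groups, 6 comparisons, Benjamini-Hochberg adjustment over all genes that passed the expression filter), and DESeq2 1.42.0 was an alternative. Gene positions came from GENCODE on GRCm38. Genes named were a fixed list (complex II, isoform families, Cox4i1, Cox6b1, Cox7b and Cox7a2l), each complex's highest and lowest per length, and the members with the 3 widest and narrowest called changes in a comparison, and others were chosen after their values were seen. Members and lists were chosen with earlier results of these data known, and Ndufa4 and Usmg5 were added after the design. Alternatives changed the scaling, the filter, the samples kept, the block by replicate number, the summing of Geltrex samples and the GC and length offsets. Genes outside the lists were left out of the text.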

Additional observations from a re-analysis of the deposited data

How the results depend on the processing

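Members lower on fibronectin over control numbered 12 with the Geltrex samples summed into 1, 3 at a fold change of at least 2, and 10 to 31 with a sample left out. For Geltrex over control 2 were higher with GC and length offsets, an alternative chosen after seeing the data, and lower were 4 without the filter, 1 with Geltrex summed, 2 at a fold of 2, and 2 to 10 with a sample left out. Collagen I over control gave 4 higher without the filter. Collagen I over fibronectin gave 3 higher at a fold of 2 and 33 to 40 with a sample left out, and Cox6a1 there turned to -0.13 with the offsets. Collagen I over Geltrex gave 2 with Geltrex summed, 2 at a fold of 2 and 9 to 21 with a sample left out. Fibronectin over Geltrex gave 9 lower by DESeq2, 12 without the filter, 10 with only its 6 samples, 0 with Geltrex summed, 1 at a fold of 2, and 0 to 17 with a sample left out. Counts moved by more than 1.5 times without any 1 control, fibronectin or Geltrex sample or Collagen I sample 1 or 3. Shares of all genes called moved with such omissions too, as given above. By exact permutation, Cox7a1 over Cox7a2 gave p = 0.0608 with a replicate block, Cox8b over Cox8a 0.0507 with Geltrex summed and 0.0125 to 0.0681 with a sample left out. Samples of equal number were not treated as paired, as no comparison had all 3 correlations above 0.1. On Collagen I over fibronectin these were 0.0473, 0.169 and 0.225. There each of the 3 Collagen I samples matched best with the fibronectin sample of its own number. With a replicate block the members' median in that comparison was 0.48.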
